A study of Mus musculus with 16 samples.

Results

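The insulin and insulin-like growth factor (IGF) signalling genes described here are the ligand gene Igf1, the receptor genes Insr and Igf1r, the adaptor genes Irs1 and Irs2, and the binding protein genes Igfbp2, Igfbp3, Igfbp4, Igfbp5 and Igfbp7. They were taken as a given list of 10 gene symbols. The rule for membership uses no measured value, but the list was drawn up with earlier results of these data known. All 10 were found among the 24722 genes of the glomerular table and among the 34264 genes of the cortex table. All 10 also passed the filter on low counts in both tables. The RNA came from isolated glomeruli, the capillary tufts in which blood is filtered, and from renal cortex, which is mostly tubule. The 4 groups were glomeruli of diabetic mice, glomeruli of control mice, cortex of diabetic mice and cortex of control mice, with 4 libraries each. Every mouse was wild type (WT) and 24 weeks old, and every library carried batch number 1. Diabetic mice had received a high-fat diet (HFD) and streptozotocin (STZ), which kills beta cells of the pancreas. The labels give neither the diet nor the injections of the controls, so effects of diet, toxin and diabetes cannot be told apart. They do not say whether each library came from its own animal, so the spread behind each p-value may be technical only.

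Insulin and IGF1 bind the tyrosine kinase receptors encoded by Insr and Igf1r, which recruit the IRS adaptor proteins and pass the signal on to phosphoinositide 3-kinase, AKT and mTOR, while FoxO transcription factors are kept out of the nucleus. Most IGF1 in blood is made by liver under growth hormone, and many tissues also make it locally. IGF binding proteins hold IGF1 in blood and matrix, slow or prolong its access to the receptor, and have actions of their own. In kidney, IGF1 is known for raising glomerular filtration and renal size, and diabetes is a setting in which the renal IGF system has long been studied.

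Total counts per library ran from 36339294 to 40696477 in diabetic glomeruli and from 40001932 to 41876031 in control glomeruli. In cortex they ran from 60628981 to 72352656 in diabetic mice and from 57473100 to 69947387 in control mice. Diabetic glomerular libraries 1 and 4, and control glomerular libraries 3 and 4, were nearly alike. Chi-square per gene was 6.694 for the diabetic pair, where other diabetic pairs had 66.18 to 97.87. It was 2.763 for the control pair, where other control pairs had 45.7 to 84.38. Both pairs were therefore added up into single samples, written 1+4 and 3+4, leaving n = 3 diabetic and n = 3 control glomerular samples beside n = 4 each in cortex. Diabetic glomerular samples 1+4 and 3 held more tubular RNA than the rest. Summed CPM of 10 proximal tubule markers was 1074, 102 and 513 in diabetic samples 1+4, 2 and 3, against 74.5 to 95.1 in control samples. Podocyte markers summed to 3471 to 5567 CPM in diabetic glomeruli and 6613 to 8188 CPM in control glomeruli, and to no more than 468 CPM in diabetic and 520.4 CPM in control cortex, as the tissue labels say. In cortex the proximal tubule sum was 20443 to 27484 CPM in diabetic mice and 23647 to 33327 CPM in control mice. Control cortex library 4 stood apart from the other 3 (chi-square per gene 77.65 to 96.18, against 18.43 to 28.42 among them). CPM values are counts scaled to a common library size with TMM (trimmed mean of M values) factors. Over all genes, the glomerular median log2 fold change was 0.01 with TMM and 0.20 with plain library totals, and 51.6% and 72.5% of calls were then higher in diabetic mice. In cortex the shares higher were 53.7% with TMM and 63.5% with library totals. Igf1, Insr, Irs1, Irs2 and Igfbp7 overlap annotated genes on the opposite strand, and whether counting used strand is not given in the sources used here, so reads of those genes may be included.

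In diabetic glomeruli 5 of the 10 genes fell relative to control glomeruli. They were the ligand Igf1, the receptor Igf1r and the binding proteins Igfbp2, Igfbp3 and Igfbp7, with Igfbp2 down the most. None rose: the quasi-likelihood test of edgeR, adjusted by Benjamini-Hochberg over 15238 genes, called 0 higher, as did an unadjusted p under 0.05 and DESeq2. Of all genes tested 37.5% were called, 19.4% higher and 18.2% lower, so calls were common in this tissue. For 6 of the 10 the diabetic and control samples did not overlap, against 54.2% of all genes tested. The median log2 fold change was -0.32 over the 10 genes and 0.01 over all genes. With diabetic library 2 as the only diabetic sample, 4 of the 10 were called (Igf1, Igfbp2, Igfbp3 and Igfbp7), against 14.5% of all genes. In that fit the lone sample is assumed to vary like the controls.

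**Figure D1:**
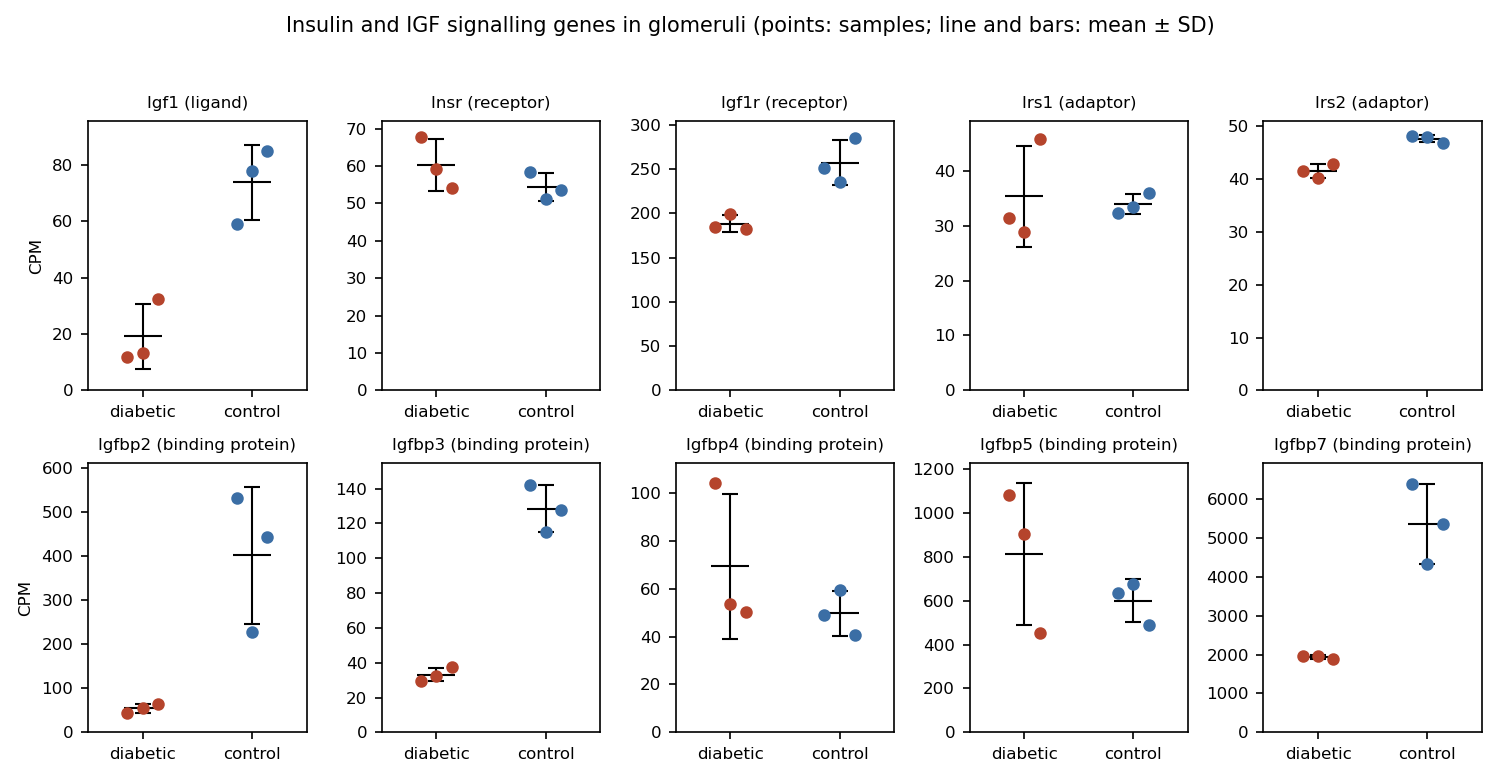
CPM of each gene in glomeruli (vertical axes, each starting at 0), with diabetic samples on the left and control samples on the right of each panel. Points are samples (n = 3 each), and lines with bars are mean ± SD. Igf1, Igf1r, Irs2, Igfbp2, Igfbp3 and Igfbp7 lie lower in all diabetic samples than in any control sample, and Irs2 was not called.

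In cortex 3 of the 10 fell: the adaptor Irs1 and the binding proteins Igfbp3 and Igfbp5. Again edgeR's quasi-likelihood test called 0 higher over 19228 genes, with 0 at an unadjusted p under 0.05 and 0 by DESeq2. Of all genes tested in cortex 20.1% were called, 10.8% higher and 9.29% lower. The same 3 genes were those whose groups did not overlap, against 24.9% of all genes. The median over the 10 was -0.35, and over all genes -0.00.

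**Figure D2:**
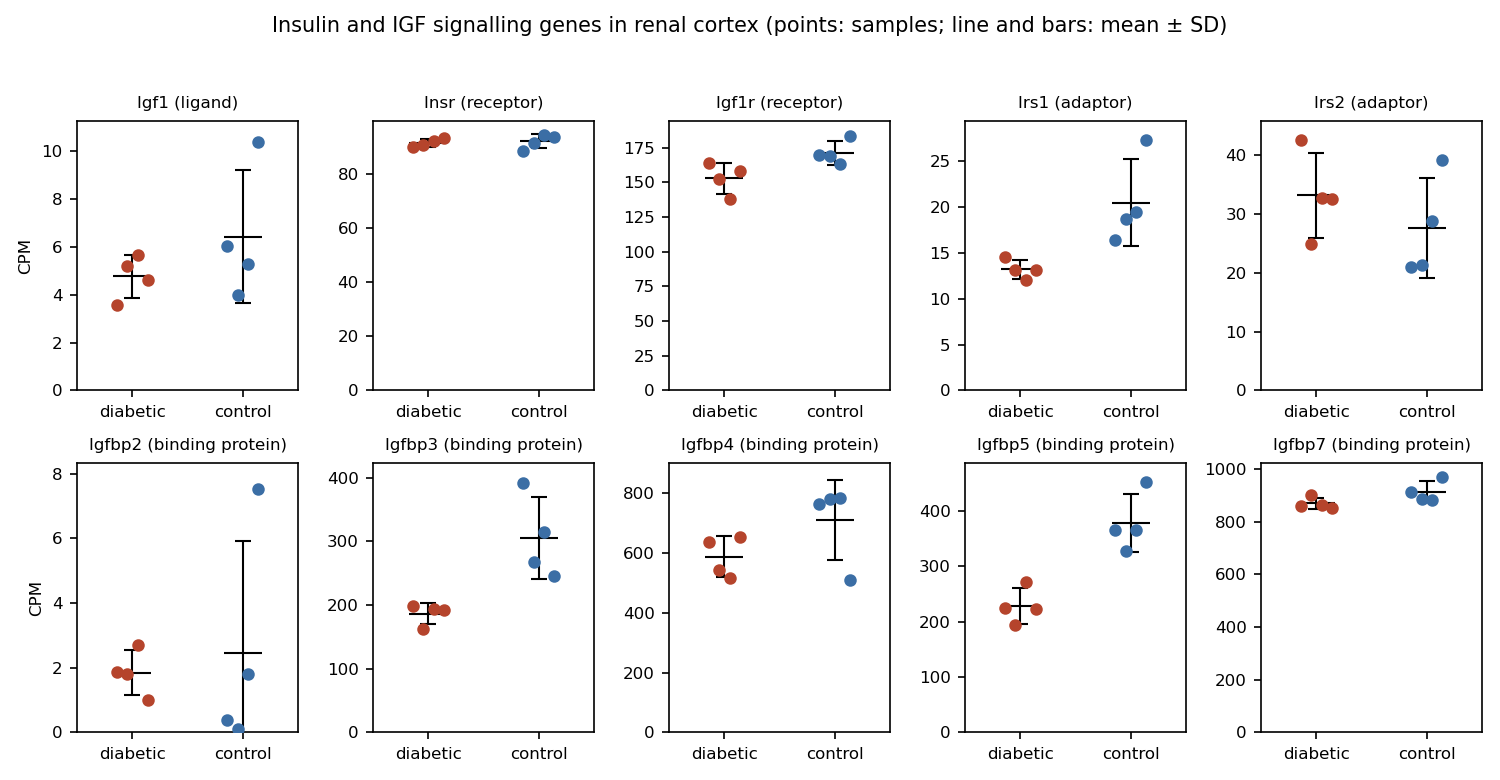
CPM of each gene in renal cortex (vertical axes, each starting at 0), with diabetic libraries on the left and control libraries on the right of each panel. Points are libraries (n = 4 each), and lines with bars are mean ± SD. Irs1, Igfbp3 and Igfbp5 lie lower in all diabetic libraries than in any control library, and 1 control library is far above the rest for Igfbp2.

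Whether the diabetic effect itself differed between the tissues was tested as an interaction over 16514 genes. This test called 5 of the 10, with Igf1, Igfbp3 and Igfbp7 lower and Irs1 and Igfbp5 higher in the glomerular effect than in the cortical one. Of all genes 35.0% were called, 18.8% higher and 16.2% lower. With diabetic library 2 as the only diabetic glomerular sample, 4 of the 10 were called (Igf1, Igfbp3, Igfbp5 and Igfbp7), against 22.0% of all genes. The calls of Igfbp3, Igfbp5 and Igfbp7 were kept in all 22 alternatives run. The call of Igf1 was lost in 11 of them and that of Irs1 in 13.

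**Figure D3:**
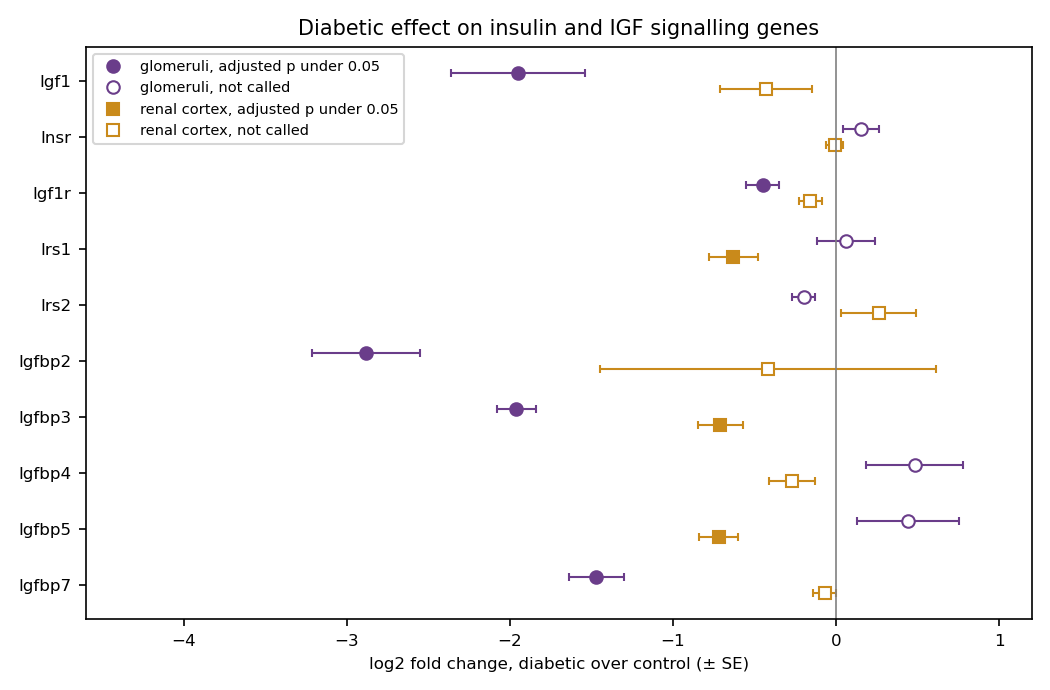
Log2 fold change of diabetic over control (horizontal axis, ± SE from edgeR) for each gene, in glomeruli (circles) and cortex (squares). Filled symbols passed an adjusted p of 0.05. Igfbp2, Igfbp3, Igf1 and Igfbp7 lie far left in glomeruli, from -2.88 to -1.47, while in cortex the lowest values are -0.72 for Igfbp5 and -0.71 for Igfbp3.

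Igf1 encodes the ligand and spans chromosome 10, positions 87858265 to 87937042, on the plus strand of GRCm38 (ENSMUSG00000020053). It had 11.8, 13.1 and 32.5 CPM in diabetic glomerular samples 1+4, 2 and 3, against 59.0, 77.8 and 84.7 CPM in control samples 1, 2 and 3+4. Every diabetic sample was below every control sample, and diabetic sample 3 was nearest to the controls. The log2 fold change was -1.95 ± 0.41 (edgeR's quasi-likelihood test, adjusted p = 0.0115), or 0.258 times the control level. Without diabetic libraries 1, 3 and 4 it was -2.48 ± 0.29 (edgeR adjusted p = 0.015). In cortex the gene was sparse, with 3.58, 5.21, 5.64 and 4.61 CPM in diabetic libraries 1 to 4 and 6.02, 3.98, 5.3 and 10.4 CPM in control libraries 1 to 4. The cortical groups overlapped (-0.43 ± 0.28, edgeR adjusted p = 0.313), and control library 4 was the highest. The difference of the effects was -1.51 ± 0.52 (edgeR adjusted p = 0.0399). This difference lost its call with library totals in place of TMM. It also lost it, at edgeR adjusted p of 0.0593 to 0.0901, when any 1 of the following was left out. In glomeruli these were control samples 2 or 3+4 and diabetic samples 1+4 or 2. In cortex they were control libraries 1, 2 or 3 and diabetic libraries 2, 3 or 4.

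Marker sums of several cell types were lower in diabetic glomeruli, as Igf1 was. The 6 fibroblast markers summed to 1361, 1572 and 4198 CPM in diabetic samples 1+4, 2 and 3, against 6715 to 6839 CPM in control samples, so diabetic sample 3 was again the nearest to the controls. Of these markers 5 were tested and 3 fell. Beside this and the marker counts below, 37.5% of all glomerular genes tested were called, and 18.2% were called lower. The list includes 3 collagen genes, and Col1a1 and Col1a2 made up most of the sum, at 1935 and 2064 CPM in diabetic sample 3. Dcn and Pdgfra did not follow the order of the sum. Dcn fell (-3.55 ± 0.28, edgeR adjusted p = 0.000552) but was highest, among diabetic samples, in 1+4. Pdgfra had 25.0, 27.2 and 9.55 CPM in diabetic samples 1+4, 2 and 3, and 12.9 to 20.1 CPM in control samples. Diabetic sample 3 was thus the lowest for Pdgfra, and the other diabetic samples lay above all controls. Lum was at 0 in diabetic sample 2 and control sample 2. The 8 mesangial markers summed to 758, 656 and 651 CPM in diabetic samples 1+4, 2 and 3, against 1345 to 1427 CPM in control samples, with 3 of 8 lower and none at 0. Here diabetic sample 3 was the farthest from the controls. The 5 smooth muscle and renin cell markers summed to 3039, 3579 and 5794 CPM in diabetic samples 1+4, 2 and 3. Control samples had 16714 to 19083 CPM, so diabetic sample 3 was nearest to them here as well. Of the 5 markers 4 were lower and none was at 0. The fifth marker was the renin gene Ren1, which did not follow the sum. Ren1 had 57.5, 59.8 and 15.3 CPM in diabetic samples 1+4, 2 and 3, against 19.8, 22.9 and 17.8 CPM in control samples 1, 2 and 3+4. Its change of 1.13 ± 0.47 missed the threshold (edgeR adjusted p = 0.103), but it was called higher by DESeq2 and without diabetic libraries 1, 3 and 4. In bulk RNA, fewer cells of a type and less RNA per cell cannot be told apart, and the part of these cell types in the result was not tested. The genes whose centred log2 CPM was closest to that of Igf1 over all 14 samples were Serpinf1, Pdgfrb and Aebp1, at root mean square distances of 0.35, 0.41 and 0.42. The spread of Igf1 itself was 1.46 on that scale, and tissue and group are shared by all points. Pdgfrb, which encodes a receptor of mesangial cells and pericytes, is also among the mesangial markers.

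**Figure D4:**
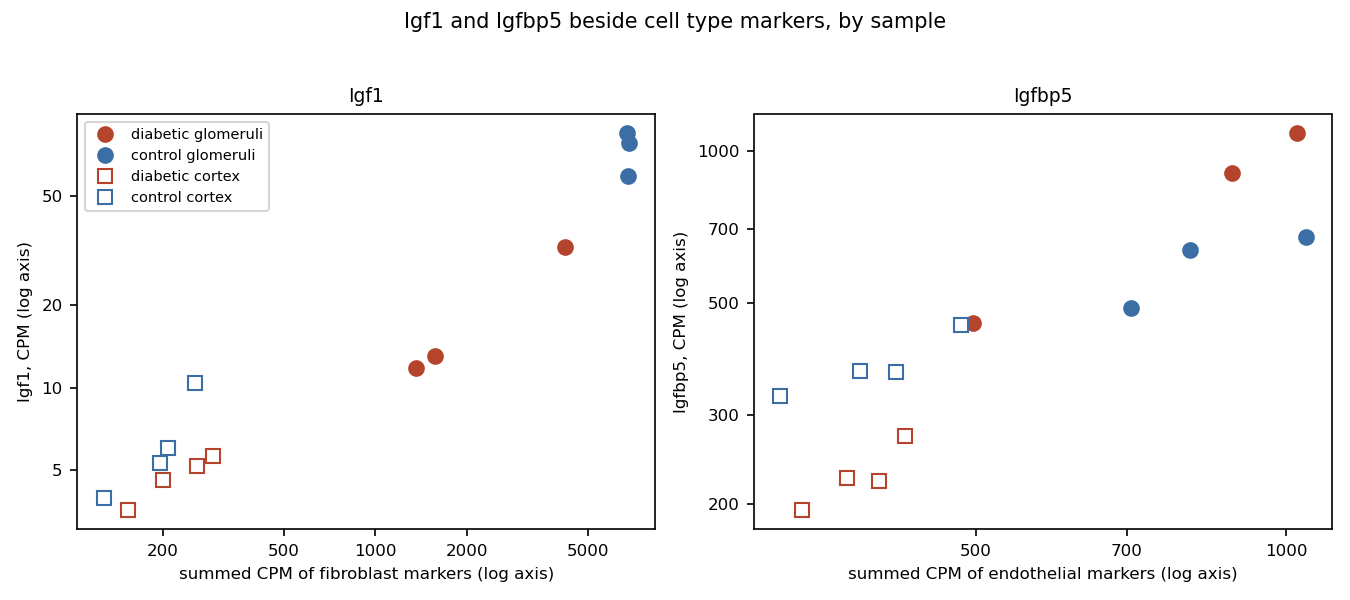
CPM of Igf1 beside the summed CPM of 6 fibroblast markers (left) and CPM of Igfbp5 beside the summed CPM of 8 endothelial markers (right), all on log axes. Each point is 1 of 14 samples, with glomeruli as filled circles and cortex as open squares. Diabetic glomerular sample 3 is the diabetic glomerular sample nearest to the controls for Igf1 and the fibroblast marker sum. It is the lowest glomerular sample for Igfbp5 and the endothelial marker sum. Most of the fibroblast marker sum in glomeruli is Col1a1 and Col1a2, and the markers Dcn and Pdgfra do not follow its order. Other marker lists with the same order of samples are not drawn.

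Of the receptors, Igf1r lies on chromosome 7 at 67952827 to 68233668 (plus strand, ENSMUSG00000005533) and encodes the main receptor of IGF1. It had 184, 199 and 182 CPM in diabetic glomerular samples 1+4, 2 and 3, against 251, 235 and 285 CPM in control samples 1, 2 and 3+4. The groups did not overlap, and the fall was small, at -0.45 ± 0.10 (edgeR adjusted p = 0.014). That call was lost in 5 of 14 alternatives. With plain library totals the change was -0.26 (edgeR adjusted p = 0.0855), without diabetic sample 1+4 it was -0.40 (0.0664), and without diabetic libraries 1, 3 and 4 it was -0.34 (0.233). On FPKM with pseudocounts of 1 and 0.1 it also missed the threshold (limma adjusted p = 0.0875 and 0.0832). Cortical Igf1r had 164, 152, 138 and 158 CPM in diabetic libraries 1 to 4, against 169.7, 169, 163 and 183 CPM in control libraries 1 to 4. The diabetic values were mostly the lower ones but overlapped the controls (-0.16 ± 0.07, edgeR adjusted p = 0.118), and the effects of the tissues did not differ past the threshold (-0.28, adjusted p = 0.0903).

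Insr, the insulin receptor gene (chromosome 8, 3122061 to 3279617, minus strand, ENSMUSG00000005534), was the least variable of the 10 in cortex. It had 67.9, 59.1 and 54.2 CPM in diabetic glomerular samples 1+4, 2 and 3, and 58.5, 51.3 and 53.6 CPM in control samples 1, 2 and 3+4. These ranges overlapped (0.15 ± 0.11, edgeR adjusted p = 0.31). In cortex Insr averaged 91.6 ± 1.52 CPM in diabetic and 92.1 ± 2.65 CPM in control mice (SD, n = 4 each), a difference of -0.01 ± 0.05 on the log2 scale (edgeR adjusted p = 0.94). Its sign turned with the scaling and with single libraries left out, and it stayed within 0.04 of 0 under every alternative run.

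The adaptors link both receptors to phosphoinositide 3-kinase. Irs1 (chromosome 1, 82233101 to 82291416, minus strand, ENSMUSG00000055980) had 14.6, 13.1, 12.1 and 13.1 CPM in diabetic cortex libraries 1 to 4, against 16.4, 18.7, 19.5 and 27.3 CPM in control libraries 1 to 4. All 4 diabetic libraries were below all 4 controls, and control library 4 was the highest. The change was -0.63 ± 0.15 (edgeR adjusted p = 0.0143), and without control library 4 it was -0.46 ± 0.10 (edgeR adjusted p = 0.00712). On FPKM the same change missed the threshold (limma adjusted p = 0.061 and 0.0517 with pseudocounts of 1 and 0.1). Glomerular Irs1 had 31.3, 28.9 and 45.8 CPM in diabetic samples 1+4, 2 and 3, against 32.3, 33.4 and 35.9 CPM in control samples 1, 2 and 3+4. Diabetic sample 3 alone lay above the controls, and the other 2 lay below them (0.06 ± 0.18, edgeR adjusted p = 0.816). Without sample 3 the sign turned, to -0.15 (edgeR adjusted p = 0.301). The difference of the effects was 0.69 ± 0.25 (edgeR adjusted p = 0.0463) and fell to 0.36 (adjusted p = 0.382) without diabetic libraries 1, 3 and 4.

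Irs2 (chromosome 8, 10984681 to 11008458, minus strand, ENSMUSG00000038894) encodes the adaptor that in liver is induced on fasting. It had 41.5, 40.3 and 42.9 CPM in diabetic glomerular samples 1+4, 2 and 3, against 48.1, 47.9 and 46.9 CPM in control samples 1, 2 and 3+4. The groups were tight and did not overlap, yet the change of -0.20 ± 0.07 missed the threshold (edgeR adjusted p = 0.0644). DESeq2 called it (adjusted p = 0.0228), and with library totals the change was -0.01 (edgeR adjusted p = 0.921). In cortex Irs2 was scattered in both groups, with 42.5, 24.9, 32.7 and 32.5 CPM in diabetic and 21.0, 21.3, 28.8 and 39.1 CPM in control libraries 1 to 4 (0.26 ± 0.23, edgeR adjusted p = 0.469). Irs2 thus sat just outside the threshold in glomeruli. Igf1r was well inside it in the main fit (edgeR adjusted p = 0.014), but its call depended on the setting.

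The binding proteins held the larger changes. Igfbp2 and Igfbp5 are neighbours on chromosome 1, Igfbp2 on the plus strand at 72824503 to 72852474 (ENSMUSG00000039323) and Igfbp5 on the minus strand at 72857932 to 72874884 (ENSMUSG00000026185). Their ends face each other across 5457 bases, and no annotated gene lies between them. Igfbp3 is on chromosome 11 at 7206086 to 7213923 (minus strand, ENSMUSG00000020427), next to Igfbp1 in the same arrangement across 3539 bases. Igfbp4 is at 99041244 to 99054392 of chromosome 11 (plus strand, ENSMUSG00000017493), and Igfbp7 is on chromosome 5 at 77349240 to 77408041 (minus strand, ENSMUSG00000036256).

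The 250 bases before the RefSeq start are printed for the 3 binding protein genes that fell together in glomeruli, and for Igfbp5, the neighbour of Igfbp2 that did not. For Igfbp2, which has more than 1 RefSeq start, the upstream one is shown. The windows are read 5′ to 3′ along the gene's own strand from RefSeq on GRCm38.p6. Capitals mark exact matches to any of 4 motifs on either strand. The motif searched for SP1, which binds many promoters without a TATA box, was GGGCGG. For TEAD, the partner of the coactivator YAP, it was GGAATG. For the FoxO factors, which insulin keeps out of the nucleus, it was TGTTTAC. The TATA box itself was searched as TATAAA.
Igfbp2 at chr1:72824230-72824479, plus strand: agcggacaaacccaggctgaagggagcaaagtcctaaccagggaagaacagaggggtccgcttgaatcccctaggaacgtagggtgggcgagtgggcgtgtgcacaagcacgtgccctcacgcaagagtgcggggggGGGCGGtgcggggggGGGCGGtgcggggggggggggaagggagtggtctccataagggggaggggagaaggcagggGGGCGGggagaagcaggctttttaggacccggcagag
Igfbp3 at chr11:7213924-7214173, minus strand: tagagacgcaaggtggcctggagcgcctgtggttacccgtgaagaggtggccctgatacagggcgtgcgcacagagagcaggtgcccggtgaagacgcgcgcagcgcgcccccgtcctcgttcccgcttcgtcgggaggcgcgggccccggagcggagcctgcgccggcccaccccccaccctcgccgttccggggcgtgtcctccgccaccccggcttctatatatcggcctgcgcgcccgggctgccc
Igfbp7 at chr5:77408046-77408295, minus strand: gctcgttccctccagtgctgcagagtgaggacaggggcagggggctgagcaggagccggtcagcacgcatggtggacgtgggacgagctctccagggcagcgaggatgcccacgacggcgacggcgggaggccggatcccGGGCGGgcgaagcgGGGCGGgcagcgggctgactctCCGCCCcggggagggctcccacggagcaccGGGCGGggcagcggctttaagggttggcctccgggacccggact
Igfbp5 at chr1:72874866-72875115, minus strand: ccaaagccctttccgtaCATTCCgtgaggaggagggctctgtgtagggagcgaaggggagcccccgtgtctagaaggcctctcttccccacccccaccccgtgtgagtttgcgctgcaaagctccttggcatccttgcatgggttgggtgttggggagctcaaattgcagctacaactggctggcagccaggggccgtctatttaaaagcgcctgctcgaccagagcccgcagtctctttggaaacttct
The windows of Igfbp2, Igfbp3 and Igfbp7 held 67.2%, 73.2% and 74.0% G and C, against 58.8% for Igfbp5 and a median of 52.4% over all 32851 promoter windows of RefSeq. Igfbp2 had 3 matches to GGGCGG and Igfbp7 had 4, Igfbp3 had none of the 4 motifs, and Igfbp5 had 1 match to GGAATG. No matches overlapped. Of all windows 32.7% held GGGCGG, 12.6% GGAATG, 3.17% TGTTTAC and 12.4% TATAAA. RefSeq windows were matched for 9 of the 10 genes, all but Insr. Among these, GGGCGG was found in 5, GGAATG in 2, TATAAA in 1 and TGTTTAC in 0. No motif of the 4 was present in all 3 genes that fell together.

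Igfbp2 encodes a binding protein with a motif that integrins recognise. It had 44.1, 55.4 and 64.2 CPM in diabetic glomerular samples 1+4, 2 and 3, against 531, 228 and 444 CPM in control samples 1, 2 and 3+4. The diabetic samples lay close together, and even the lowest control was far above them. The log2 fold change was -2.88 ± 0.33 (edgeR adjusted p = 0.00151), or 0.136 times the control level. Without diabetic libraries 1, 3 and 4 it was -2.83 ± 0.57 (edgeR adjusted p = 0.0413). In cortex Igfbp2 was sparse, with 132, 129, 173 and 62 counts in diabetic libraries 1 to 4, against 23, 6, 124 and 532 counts in control libraries 1 to 4. Control library 4 held most of the control counts, and the change of -0.42 ± 1.03 (edgeR adjusted p = 0.82) became 1.23 ± 0.79 (adjusted p = 0.313) without it. The difference of the effects did not pass the threshold (-2.44 ± 1.14, edgeR adjusted p = 0.119).

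Igfbp3 encodes the main carrier of IGF1 in blood and fell in both tissues. It had 29.7, 32.4 and 37.3 CPM in diabetic glomerular samples 1+4, 2 and 3, against 142, 115 and 128 CPM in control samples 1, 2 and 3+4. The groups were far apart, at 0.257 times the control level (-1.96 ± 0.12, edgeR adjusted p = 0.000349). Without diabetic libraries 1, 3 and 4 the value was again -1.96 (edgeR adjusted p = 0.00826). In cortex it had 198, 162, 194 and 192 CPM in diabetic libraries 1 to 4, against 392, 268, 315 and 246 CPM in control libraries 1 to 4. All diabetic libraries were below all controls, with a change of -0.71 ± 0.14 (edgeR adjusted p = 0.00669) and of -0.80 ± 0.12 without control library 4 (edgeR adjusted p = 0.00244). The fall was deeper in glomeruli, by -1.24 ± 0.21 on the log2 scale (edgeR adjusted p = 0.000637). The genes closest to it over the 14 samples were C1rl, Islr and Mfsd7a, at distances of 0.24, 0.33 and 0.44 against a spread of 1.29.

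Igfbp7 encodes a low-affinity IGF binding protein of vessel walls and matrix, and was the most abundant of the family in every group. It had 1973, 1951 and 1881 CPM in diabetic glomerular samples 1+4, 2 and 3, against 6370, 4313 and 5355 CPM in control samples 1, 2 and 3+4. The 3 diabetic samples were nearly equal and lay below all controls, and the change was -1.47 ± 0.17 (edgeR adjusted p = 0.00136). Without diabetic libraries 1, 3 and 4 it was -1.43 ± 0.26 (edgeR adjusted p = 0.0338). In cortex Igfbp7 averaged 868 ± 21.5 CPM in diabetic and 912 ± 40.1 CPM in control mice (SD, n = 4 each), and these groups overlapped (-0.07 ± 0.07, edgeR adjusted p = 0.498). The difference of the effects was -1.39 ± 0.16 (edgeR adjusted p = 3.94e-05), the smallest adjusted p of the 10 genes in that test. Its closest genes over the 14 samples were Pkia, Rabgef1 and Ssbp2, at distances of 0.14, 0.15 and 0.17 against a spread of 0.91.

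Igfbp5, whose product binds IGF1 and extracellular matrix, moved differently in the tissues. In cortex it had 225, 194, 272 and 222 CPM in diabetic libraries 1 to 4, against 366, 327, 365 and 451 CPM in control libraries 1 to 4. All diabetic libraries were below all controls, with a change of -0.72 ± 0.12 (edgeR adjusted p = 0.00333) and of -0.63 ± 0.10 without control library 4 (edgeR adjusted p = 0.00205). In glomeruli it had 1083, 902 and 455 CPM in diabetic samples 1+4, 2 and 3, and 636, 674 and 489 CPM in control samples 1, 2 and 3+4. Diabetic samples 1+4 and 2 lay above the controls and sample 3 below them, so the groups overlapped (0.44 ± 0.31, edgeR adjusted p = 0.308). Without sample 3 the gene was called higher, at 0.75 (edgeR adjusted p = 0.0192). The effects differed between the tissues by 1.17 ± 0.33 (edgeR adjusted p = 0.0147).

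Endothelial markers followed the same order of samples in diabetic glomeruli, as did podocyte and mesangial markers. Podocyte markers summed to 5567, 5216 and 3471 CPM in diabetic samples 1+4, 2 and 3, and mesangial markers to 758, 656 and 651 CPM. The order was therefore not particular to endothelial markers. The 8 endothelial markers summed to 1025, 886 and 497 CPM in diabetic samples 1+4, 2 and 3, against 807, 1044 and 706 CPM in control samples 1, 2 and 3+4. None of the 8 was called in either tissue by edgeR, where 37.5% of all genes were called in glomeruli and 20.1% in cortex. At an unadjusted p under 0.05, 1 was lower in cortex and 0 were called in glomeruli, and DESeq2 gave the same counts. After these values were seen, Igfbp5 was divided by the marker sum as a description without a test. The ratio was 1.06, 1.02 and 0.91 in diabetic glomerular samples 1+4, 2 and 3, against 0.79, 0.65 and 0.69 in control samples 1, 2 and 3+4. In cortex it was 0.55 to 0.64 in diabetic libraries and 0.87 to 1.01 in control libraries. On this scale diabetic samples were all above controls in glomeruli and all below them in cortex. In cortex this already held for the CPM of Igfbp5 without the division. Groups did not overlap on CPM for 54.2% of all genes tested in glomeruli and 24.9% in cortex. The genes closest to Igfbp5 over the 14 samples were Rasl11b, Ptprb and Adcy4, at distances of 0.20, 0.23 and 0.26 against a spread of 0.61. Ptprb encodes the vascular endothelial protein tyrosine phosphatase.

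Igfbp4, whose product inhibits IGF1 and is cut by the protease PAPP-A, was not called in either tissue. It had 104, 53.7 and 50.1 CPM in diabetic glomerular samples 1+4, 2 and 3, and 49.0, 59.4 and 40.7 CPM in control samples 1, 2 and 3+4 (0.48 ± 0.30, edgeR adjusted p = 0.251). Diabetic sample 1+4 alone lay above the controls, and without diabetic libraries 1, 3 and 4 the change was 0.14 (edgeR adjusted p = 0.719). The proximal tubule markers summed to 1074, 102 and 513 CPM in diabetic samples 1+4, 2 and 3. Sample 1+4 was thus the highest diabetic sample for these markers and for Igfbp4. Samples 2 and 3 differed little for Igfbp4. The part of tubular RNA in the Igfbp4 values was not tested. Cortical Igfbp4 had 637, 544, 516 and 654 CPM in diabetic libraries 1 to 4, against 763, 782, 783 and 509 CPM in control libraries 1 to 4. Control library 4 alone lay below the diabetic range. The change was -0.27 ± 0.14 (edgeR adjusted p = 0.218), and without that library -0.40 ± 0.08 (edgeR adjusted p = 0.00686). The closest genes over the 14 samples were Fggy, Smpdl3a and Abcg2, at distances of 0.20, 0.23 and 0.23 against a spread of 1.91.

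Levels can be compared between genes only per transcript length, so the authors' FPKM (fragments per kilobase of transcript, scaled to the library) were used for that. These levels are not tested between tissues, since each tissue has its own table and annotation. Igfbp7 had 1709 ± 79.3 FPKM in diabetic and 4138 ± 730.2 FPKM in control glomeruli (SD, n = 3 each), and 674 ± 33.9 FPKM in diabetic and 691 ± 59.7 FPKM in control cortex (n = 4 each). The order from high to low was control glomeruli, diabetic glomeruli, control cortex and diabetic cortex, and the cortical groups overlapped. Igf1 kept the same order, at 2.36 ± 1.37 FPKM in diabetic and 8.07 ± 1.59 FPKM in control glomeruli, and at 0.45 ± 0.0982 FPKM in diabetic and 0.598 ± 0.287 FPKM in control cortex, where the groups overlapped.

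Igfbp2 was the most glomerular of the 10, with 33.8 ± 5.58 FPKM in diabetic and 218 ± 82.0 FPKM in control glomeruli. Cortex had 0.937 ± 0.382 FPKM in diabetic and 1.26 ± 1.82 FPKM in control mice. The glomerular level was 36.1 times the cortical one in diabetic mice and 172 times in control mice. Igf1r followed the same order, with 15.5 ± 0.964 FPKM in diabetic and 18.6 ± 2.03 FPKM in control glomeruli, and 8.52 ± 0.362 FPKM in diabetic and 9.33 ± 0.841 FPKM in control cortex.

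Igfbp3 and Igfbp4 were instead higher in cortex. Igfbp3 had 8.77 ± 0.843 FPKM in diabetic and 30.0 ± 2.67 FPKM in control glomeruli, and 55.8 ± 4.65 FPKM in diabetic and 89.0 ± 18.4 FPKM in control cortex, with no overlap between neighbours in that order. Igfbp4 had 22.9 ± 10.4 FPKM in diabetic and 14.4 ± 2.72 FPKM in control glomeruli, and 124 ± 10.7 FPKM in diabetic and 146 ± 23.2 FPKM in control cortex. Only the step between the tissues was free of overlap for Igfbp4.

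Igfbp5 had 149 ± 61.5 FPKM in diabetic and 95.9 ± 15.0 FPKM in control glomeruli. In cortex it had 35.7 ± 5.79 FPKM in diabetic and 57.6 ± 10.7 FPKM in control samples, so both glomerular groups stood above both cortical ones. The glomerular groups overlapped and the other neighbours did not. The glomerular level was 4.18 times the cortical one in diabetic mice and 1.66 times in control mice. Irs1 had 4.1 ± 0.964 FPKM in diabetic and 3.46 ± 0.247 FPKM in control glomeruli, and 1.35 ± 0.0672 FPKM in diabetic and 2.06 ± 0.567 FPKM in control cortex. Irs2 had 6.52 ± 0.128 and 6.57 ± 0.0876 FPKM in diabetic and control glomeruli, and 4.89 ± 0.943 and 4.02 ± 1.42 FPKM in diabetic and control cortex. Insr had 6.84 ± 0.912 and 5.41 ± 0.27 FPKM in diabetic and control glomeruli, and 6.25 ± 0.26 and 6.12 ± 0.37 FPKM in diabetic and control cortex. On FPKM, unlike on CPM, the glomerular groups did not overlap, at 5.98 to 7.8 in diabetic and 5.14 to 5.68 in control samples. The glomerular log2 change of Insr ran from 0.08 to 0.34 over the 14 alternatives and was called in none.

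Summed over Igfbp1 to Igfbp7, the binding proteins reached 1926 ± 142 FPKM in diabetic and 4503 ± 803 FPKM in control glomeruli. In cortex the sum was 899 ± 24.1 FPKM in diabetic and 988 ± 54.8 FPKM in control mice. Igfbp7 made up most of it, at 88.9% in diabetic and 91.9% in control glomeruli, and at 74.9% in diabetic and 69.8% in control cortex. In glomeruli the share of Igfbp2 was 1.77 ± 0.418% in diabetic and 4.71 ± 1.12% in control mice. The share of Igfbp5 was 7.6 ± 2.71% in diabetic and 2.2 ± 0.674% in control glomeruli, so these neighbouring genes changed places as the next largest after Igfbp7. In cortex the next largest was Igfbp4, at 13.9 ± 1.52% in diabetic and 14.9 ± 2.84% in control mice. The share of Igfbp1, low throughout, was 0.932 ± 0.162% in diabetic and 0.312 ± 0.108% in control cortex.

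**Figure D5:**
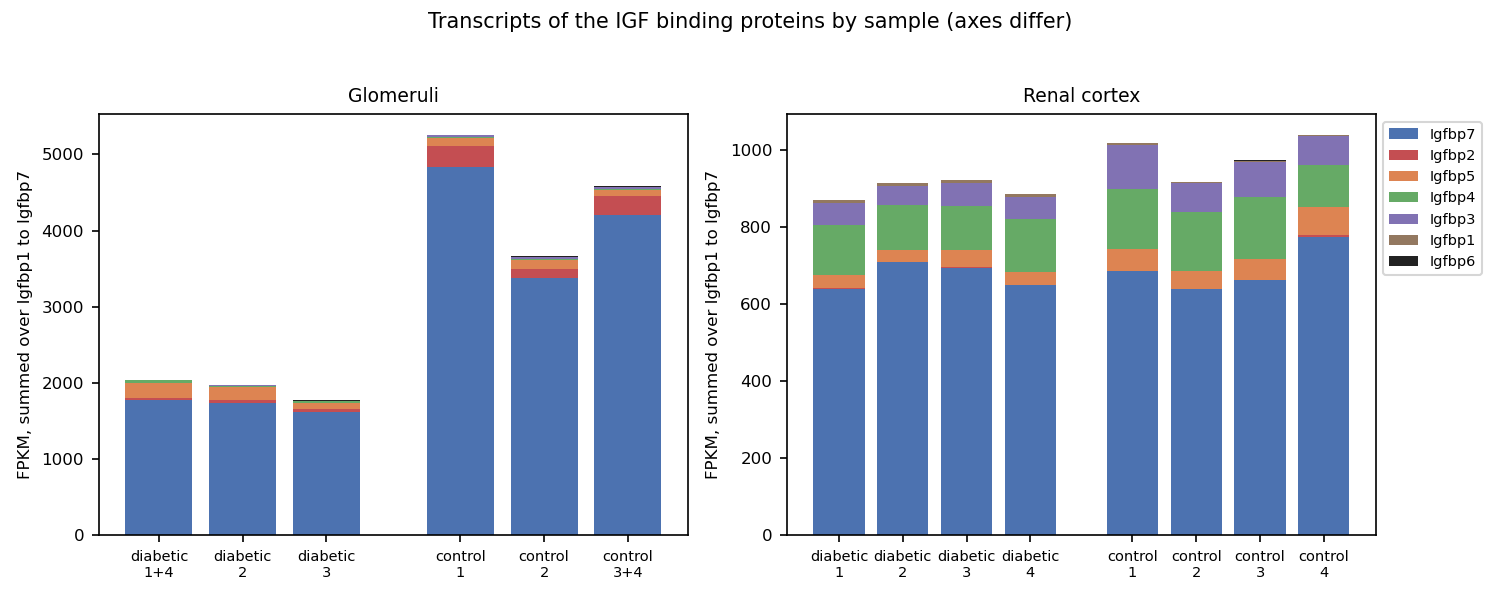
FPKM of Igfbp1 to Igfbp7 stacked for each sample (vertical axes, which differ between the tissues), in glomeruli on the left and cortex on the right, diabetic samples before control samples. Glomerular sums run from 1769 to 2043 FPKM in diabetic and from 3662 to 5262 FPKM in control samples, while cortical sums run from 872 to 923 FPKM in diabetic and from 918 to 1042 FPKM in control libraries.

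Of 15 other genes of the IGF axis, 10 were tested in glomeruli, where 2 rose and 2 fell, and 11 in cortex, where 3 rose and 1 fell. The shares called over all genes, 37.5% in glomeruli and 20.1% in cortex, put the glomerular count of 4 near that background. In cortex Igfbp1, the binding protein gene that insulin represses in liver, had 16.3, 10.6, 13.0 and 14.6 CPM in diabetic libraries 1 to 4, against 7.83, 3.63, 5.39 and 3.87 CPM in control libraries 1 to 4. All diabetic values were above all controls (1.40 ± 0.24, edgeR adjusted p = 0.00424), while its neighbour Igfbp3 fell in the same libraries. Stc1 and Stc2, whose stanniocalcin products inhibit the PAPP-A proteases, also rose in cortex, by 1.21 ± 0.23 and 0.99 ± 0.21 (edgeR adjusted p = 0.00631 and 0.00919). The insulin receptor-related gene Insrr fell there (-0.59 ± 0.17, edgeR adjusted p = 0.0403), with overlapping groups. In glomeruli Igf2r, which encodes the receptor that clears IGF2, had 226, 238 and 251 CPM in diabetic samples 1+4, 2 and 3, against 129.5, 169 and 154 CPM in control samples 1, 2 and 3+4. It rose by 0.66 ± 0.12 (edgeR adjusted p = 0.00569). Htra1, which encodes a secreted protease that cuts IGF binding proteins, and Igfbp6, which prefers IGF2, also fell, with log2 changes of -1.18 and -1.79 (edgeR adjusted p = 0.0122 and 0.016). Igfbpl1 rose at a very low level, with 0.967, 1.48 and 0.953 CPM in diabetic samples 1+4, 2 and 3, against 0.107, 0.0265 and 0.0509 CPM in control samples 1, 2 and 3+4. The median log2 fold change of the list in glomeruli was 0.51, and 0.28 without diabetic libraries 1, 3 and 4.

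Of 34 genes that carry the signal inside the cell, 3 rose and 10 fell in glomeruli, and 2 rose and 9 fell in cortex. Over all genes tested 37.5% were called in glomeruli and 20.1% in cortex, so the glomerular count of 13 was near that background. Their median log2 fold changes were -0.16 and -0.05. With plain library totals the balance in glomeruli turned, to 4 higher and 2 lower (median 0.03), and in cortex to 2 higher and 6 lower (median -0.01). Eif4ebp1, which encodes a translation repressor held in check by mTOR, rose in both tissues, by 0.62 ± 0.12 in glomeruli and 0.78 ± 0.14 in cortex (edgeR adjusted p = 0.00745 and 0.00418). In glomeruli Gab1, an adaptor gene, had 40.6, 40.4 and 41.5 CPM in diabetic samples 1+4, 2 and 3, against 93.7, 63.9 and 90.2 CPM in control samples 1, 2 and 3+4. The mTOR regulators Tsc2 and Rheb also fell there, with log2 changes of -0.55 and -0.42. In cortex the catalytic subunit genes of phosphoinositide 3-kinase moved apart. Pik3cb had 24.4, 26.6, 23.7 and 24.9 CPM in diabetic libraries 1 to 4, against 32.5, 35.5, 37.8 and 38.0 CPM in control libraries 1 to 4 (-0.53 ± 0.07, edgeR adjusted p = 0.00117). Glomerular Pik3cb rose instead (0.57 ± 0.13, edgeR adjusted p = 0.0163). Pik3cd, which is known from leukocytes, rose in cortex by 1.14 ± 0.22 (edgeR adjusted p = 0.00641). The 8 macrophage markers summed to 511 to 789.6 CPM in diabetic and 208 to 369 CPM in control cortex, with 7 of 8 higher and none at 0, and their part in that rise was not tested. In glomeruli, without diabetic libraries 1, 3 and 4, the median log2 fold change of the list of 34 was -0.13.

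Among 17 negative regulators of insulin signalling, 4 rose and 2 fell in glomeruli, and 5 rose and 3 fell in cortex. Over all genes 37.5% were called in glomeruli and 20.1% in cortex, and the glomerular count of 6 was near that background. Trib3, which encodes a pseudokinase that binds AKT, rose in both tissues. It had 55.8, 69.8 and 41.5 CPM in diabetic glomerular samples 1+4, 2 and 3, against 14.9, 14.2 and 15.1 CPM in control samples 1, 2 and 3+4 (1.92 ± 0.19, edgeR adjusted p = 0.000968). In cortex its change was 1.81 ± 0.25 (edgeR adjusted p = 0.0013). Ddit4, which encodes the mTOR inhibitor REDD1, was the most firmly called of the list in glomeruli. It had 179.6, 204 and 171 CPM in diabetic samples 1+4, 2 and 3, against 42.3, 55.3 and 36.4 CPM in control samples 1, 2 and 3+4 (2.05 ± 0.17, edgeR adjusted p = 0.000644). Ddit4 rose in cortex as well (1.53 ± 0.25, edgeR adjusted p = 0.0054). The receptor phosphatase gene Ptprf rose in glomeruli (2.53 ± 0.24, edgeR adjusted p = 0.000854), and Socs3, a suppressor of cytokine signalling, rose in cortex (1.98 ± 0.30, edgeR adjusted p = 0.00231). The glomerular median log2 fold change of the list was 0.11, and 0.13 without diabetic libraries 1, 3 and 4.

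Of 6 genes of the growth hormone axis, 2 rose and 1 fell in glomeruli, where 37.5% of all genes were called. Socs2, a feedback inhibitor of the growth hormone receptor, had 27.4, 30.0 and 24.4 CPM in diabetic samples 1+4, 2 and 3, against 9.35, 8.54 and 10.6 CPM in control samples 1, 2 and 3+4 (1.52 ± 0.13, edgeR adjusted p = 0.000638). Cish, of the same family, also rose (1.35 ± 0.35, edgeR adjusted p = 0.0254), and Stat5b, which encodes the transcription factor downstream of the receptor, fell (-0.59 ± 0.08, edgeR adjusted p = 0.00279). Ghr, the receptor gene itself, was not called in glomeruli (-0.30 ± 0.12, edgeR adjusted p = 0.0818) or in cortex (-0.29 ± 0.12, edgeR adjusted p = 0.134). In cortex edgeR called 0 of the 6 in either direction, beside 20.1% of all genes. There were 0 higher and 1 lower at an unadjusted p under 0.05, and 0 by DESeq2. The glomerular median log2 fold change of the list was 0.28, and 0.31 without diabetic libraries 1, 3 and 4.

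FoxO target genes did not move as one group: of 16 tested in glomeruli 6 rose and 4 fell, and of 17 in cortex 4 rose and 2 fell, beside 37.5% of all genes called in glomeruli and 20.1% in cortex. The proapoptotic gene Bcl2l11 rose in both tissues, by 1.08 ± 0.15 in glomeruli and 0.63 ± 0.09 in cortex (edgeR adjusted p = 0.00267 and 0.00178). In cortex the gluconeogenic genes went opposite ways. Pck1 had 4618, 4650, 4380 and 4272 CPM in diabetic libraries 1 to 4, against 2200, 1970, 2757 and 1494 CPM in control libraries 1 to 4 (1.09 ± 0.16, edgeR adjusted p = 0.00187). G6pc had 361, 303, 301 and 293 CPM in diabetic libraries 1 to 4, against 587, 524, 830.3 and 436 CPM in control libraries 1 to 4 (-0.92 ± 0.18, edgeR adjusted p = 0.00724). In glomeruli Pck1 had 173, 4.66 and 76.3 CPM in diabetic samples 1+4, 2 and 3, against 4.45 to 4.89 CPM in control samples. Samples 1+4 and 3 were also those with the most proximal tubule marker RNA, whose part in these values was not tested. Sesn2 and Sesn3, which encode stress-induced sestrins, rose in all 3 diabetic glomerular samples. Sesn3 had 30.1, 33.6 and 31.5 CPM there, against 5.8, 9.76 and 9.38 CPM in control samples 1, 2 and 3+4 (1.93 ± 0.20, edgeR adjusted p = 0.00118). Sesn2 rose in cortex as well (0.47 ± 0.10, edgeR adjusted p = 0.0116). The glomerular median log2 fold change of the list was 0.19, and -0.03 without diabetic libraries 1, 3 and 4.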

How the data were processed

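Per the labels' protocols, RNA of isolated glomeruli and renal cortex was made into libraries with a SMARTER mRNA-Seq kit. The authors deposited 1 table per tissue with raw counts per gene (glomeruli) or estimated counts made whole (cortex), each beside FPKM. The submitters' processing notes name GRCm38 and mm10. Aligner and counting tool: not given in the sources used here. The 10 genes and the pathway and marker lists were chosen with earlier results of these data known. Cortex identifiers and glomerular symbols were joined through gene tables (19052 genes). Near-identical glomerular libraries (chi-square per gene more than 5 times below other pairs) were summed, and their FPKM averaged. Counts were tested with edgeR 4.0.16 (filterByExpr, TMM, robust quasi-likelihood fit) in R 4.3.3, with Benjamini-Hochberg adjustment over all genes tested and a threshold of 0.05. The interaction was fitted over all 4 groups. SE is the log2 fold change divided by the root of F. The code was tested on simulated data. Alternatives were library totals, DESeq2 1.42.0, no filter, limma 3.58.1 on log2(FPKM + 1) and log2(FPKM + 0.1), each sample left out, libraries kept separate, the replicate number as a block, and leaving out diabetic glomerular libraries 1, 3 and 4. Named were all 10 genes, up to 4 genes per other list and tissue by adjusted p, and any gene of the IGF axis list. The 3 closest genes by root mean square difference of centred log2 CPM were named for Igf1, Igfbp3, Igfbp4, Igfbp5 and Igfbp7 only. Single fibroblast and smooth muscle and renin cell markers were named to describe their sums.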

Additional observations from a re-analysis of the deposited data

Results flagged for a closer look

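The diabetic effect differed between glomeruli and cortex for 5 of the 10 genes, by edgeR's interaction test with Benjamini-Hochberg adjustment, where 35.0% of all 16514 genes tested were called. The effect in glomeruli minus that in cortex, on the log2 scale, was -1.51 for Igf1, 0.69 for Irs1, -1.24 for Igfbp3, 1.17 for Igfbp5 and -1.39 for Igfbp7. For Igfbp3 both tissues fell, and glomeruli more. For Igfbp5 the fall was in cortex, while 2 of 3 diabetic glomerular samples lay above the controls. Igf1 and Igfbp7 were called in glomeruli and not in cortex, and Irs1 in cortex and not in glomeruli. Of 22 alternatives, the difference lost its call in 11 for Igf1 (adjusted p up to 0.0901) and in 13 for Irs1 (up to 0.382), and in none for Igfbp3, Igfbp5 and Igfbp7.

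Of 86 groups of 4 cortical libraries, 8 held 1 library far from the other 3, and chance alone gives about 1 in 20. Among the 10 genes this was Igfbp4 in control cortex library 4, at 509 CPM against 763 to 783 CPM in the other controls. Elsewhere on the IGF axis, Htra1 was low in diabetic library 3 at 129 CPM and in control library 4 at 89.9 CPM, and Igfbp6 was high in control library 3 at 1.49 CPM. The remaining values were Rps6kb1 at 30.4 CPM in control library 1, Stat5b at 60.0 CPM and G6pc at 361 CPM in diabetic library 1, and Pik3ip1 at 14.0 CPM in diabetic library 3.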

How the results depend on the processing

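In glomeruli Igf1, Igfbp2, Igfbp3 and Igfbp7 kept their direction and call in all 14 alternatives, as did Igfbp3 and Igfbp5 in cortex and Igfbp3, Igfbp5 and Igfbp7 in the difference test over 22. Of the single-gene values over all settings, 442 kept direction and side of the threshold, 31 lost their call, 14 gained one and 13 changed sign. The count of the 10 genes called in the difference test was 5 and ran from 3 to 6 with 1 sample left out at a time. None of the sign changes was of a called value. Irs1 in glomeruli was 0.06 and became -0.20 without diabetic libraries 1, 3 and 4 and -0.02 with the replicate block, and ran from -0.15 to 0.20 with 1 sample left out. Insr in cortex was -0.01 and became 0.04 with library totals and 0.03 on both FPKM scales, and ran from -0.03 to 0.0044 with 1 library left out. Igfbp2 in cortex was -0.42 and became 0.05 and 0.61 on FPKM with pseudocounts of 1 and 0.1 and 0.92 with the replicate block, and ran from -0.81 to 1.23 with 1 library left out. The cause was not tested. Correlations between same-numbered diabetic and control libraries were low or negative, at -0.07 to 0.11 in glomeruli and -0.30 to 0.06 in cortex. Between glomeruli and cortex they were -0.11 to 0.04 in control mice and -0.05 to 0.12 in diabetic mice. Such values cannot settle whether both tissues came from the same mice. The difference test treats all samples as independent. The replicate block called 5 of the 10 genes in glomeruli, 3 in cortex and 7 in the difference. For glomeruli and the difference, that fit kept the near-identical glomerular libraries separate, so they counted as replicates. In the difference the same 7 genes were called with separate libraries and no block. Of all genes the block called 6992 of 15182 in glomeruli, 2375 of 19228 in cortex and 6320 of 16157 in the difference. Over all genes the count of calls moved from 5717 to 2293 in glomeruli without diabetic libraries 1, 3 and 4, where 1 diabetic sample is left. In cortex it moved from 3856 to 2375 with the block and to 2528, 2538 and 2542 without diabetic libraries 2, 3 and 4, and in the difference from 5788 to 3803. Depth limits mainly cortical Igfbp2, with as few as 6 counts in a library.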
